A study of Mus musculus with 4 samples.

Results

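The genes described here are the cyclins, the cyclin-dependent kinases (Cdks), the E2F transcription factors and the E2F partners *Tfdp1* and *Tfdp2*. They were taken from the deposited expression table by gene symbol alone, which gave 49 genes of 23997: 21 cyclins, 18 Cdks, 8 E2Fs and 2 partners. Their expression was compared between Lgr5+ and Lgr6+ progenitors of the neonatal mouse cochlea. The study made this comparison to look for genes behind the different proliferation and differentiation of these cells. In culture it found more colonies and more and larger spheres from Lgr5+ cells, and more hair cells from Lgr6+ cells. Those assays took days in culture, whereas the RNA came from sorted cells that were not cultured. Lgr5+ progenitors were EGFP+ cells sorted by flow cytometry from Lgr5-EGFP-IRES-CreERT2 mice, and Lgr6+ progenitors were EGFP+ cells sorted from Lgr6-EGFP-IRES-CreERT2 mice. The labels give the C57BL/6 strain and name no treatment, and the methods give postnatal day 3 for both populations. In both lines the EGFP reports the activity of the *Lgr5* or the *Lgr6* locus, so a population holds whatever cells of the dissected cochlea were EGFP+. The labels list 2 libraries per population, 4 in all, while the methods describe RNA of each population that was divided into 3 parts before library preparation. Libraries of a population thus share an RNA extraction, and whether 2 or 3 of them stand behind each deposited value is not known.

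Cyclins are regulatory subunits that bind and switch on Cdks, and the kinases have no or little activity without them. In G1 the D-type cyclins with Cdk4 and Cdk6, followed by the E-type cyclins with Cdk2, phosphorylate the retinoblastoma family of pocket proteins and release E2Fs, which bind DNA together with a Dp partner and drive genes of DNA synthesis. The A-type and B-type cyclins with Cdk2 and Cdk1 then carry the cell through S phase and mitosis. Many relatives of these proteins have other work, in transcription, RNA splicing, neurons or cilia. In the cochlea, supporting cells leave the cell cycle before birth and are held out of it by Cdk inhibitors.

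Expression is given as FPKM, a count of fragments scaled to the length of the transcript and the size of the library, so levels can be set side by side between genes. Each gene has a single FPKM per population, already combined over libraries, so the spread between libraries is not known and no difference below has a replicate check or a test. Differences are Lgr6+ minus Lgr5+ on log2(FPKM + 1), a scale that understates the difference of genes with low FPKM. A gene was kept when its FPKM was at least 1 in at least 1 population, and was counted as higher in a population when the difference reached 1.5-fold on this scale. Coordinates are of build GRCm38, and 12 of the 49 intervals overlap that of another listed gene, which is named below unless it was listed at 0. Read counts are not in the table. Low FPKM values lie on steps, however. For genes with a single annotated transcript, the product of FPKM and transcript length less 200 bases, in kilobases, gathered at 0.129 in Lgr5+ cells and at 0.0401 in Lgr6+ cells. At these steps lay 102 and 40 genes, against 5.5 and 2.0 beside them. The depth of single libraries is unknown, and whether a step is a single fragment is not known either, but the steps show how few units a low value can rest on. Marker genes of the sorted cells were mixed. *Lgr5* was listed at 9.65 in Lgr5+ cells and at 25.0 in Lgr6+ cells, and *Lgr6* at 2.06 and 2.90, so the FPKM of *Lgr5* itself was not the higher in the population sorted for it. The paper describes Lgr6+ cells as a subpopulation of Lgr5+ progenitors. Its q-PCR found more *Lgr5* in Lgr5+ than in Lgr5- cells, a comparison that these values do not hold. *Sox2*, a marker of supporting cells, was listed at 139.6 and 54.8, and of the 9 supporting cell markers examined 3 were higher in Lgr5+ cells and 1 in Lgr6+ cells, with a median difference of -0.41. They summed to 3877 and 3527, of which *S100a1* alone made up 2959 and 3177. All 6 hair cell markers examined were listed in both populations, with a summed FPKM of 231 and 503.

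Of the 49 genes, 42 were kept. On the log2(FPKM + 1) scale, 12 of the 42 were higher in Lgr6+ cells (28.6%, against 28.5% of all 13436 kept genes) and 10 were higher in Lgr5+ cells (23.8%, against 23.3% of all kept genes). The remaining 20 lay within 1.5-fold. As a class these genes thus differed between the populations about as often as any kept gene. Their median difference was 0.12 and the median over all kept genes was 0.03. The median size of the difference, without its sign, was 0.72 against 0.61. Above a stricter minimum, an FPKM of 5 in each population, 30 members were left, of which 6 were higher in Lgr6+ cells and 7 in Lgr5+ cells, that is 20.0% and 23.3%, with 16.9% and 22.1% over all 7882 such genes. Among the 17 kept cyclins 6 were higher in Lgr6+ cells and 2 in Lgr5+ cells, whereas among the 17 kept Cdks the counts were 2 and 6. Of the 8 kept E2Fs and Dp partners, 4 were higher in Lgr6+ cells and 2 in Lgr5+ cells. At an FPKM of 5 in both populations the counts were 2 and 1 of 12 cyclins, 1 and 5 of 13 Cdks, and 3 and 1 of 5 E2Fs and Dp partners, since *Ccnb2*, *Ccnf*, *Ccne1* and *Ccnd2* lie below that minimum in Lgr5+ cells. No test of these counts was possible on 1 value per population.

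**Figure D1:**
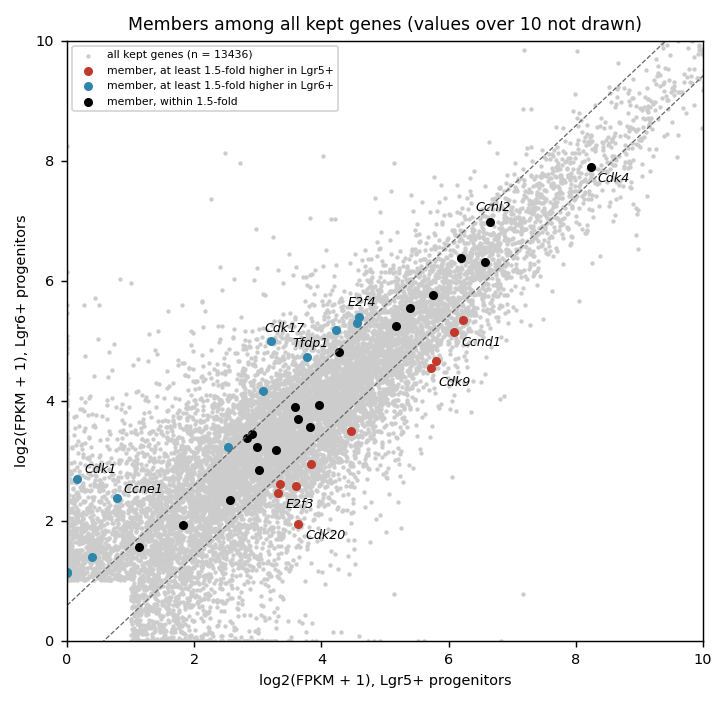
Each point is a gene, with log2(FPKM + 1) in Lgr5+ progenitors on the x axis and in Lgr6+ progenitors on the y axis; grey points are all 13436 kept genes and the dashed lines mark a 1.5-fold difference. The 42 kept members lie across the same band as the other genes, with *Cdk1*, *Ccne1* and *Cdk17* far above it and *Cdk20* far below it.

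Library scaling can shift every gene at once, since the FPKM of all genes summed to 754163 in Lgr5+ cells and to 627932 in Lgr6+ cells. Scaling both populations to the same sum moved the median difference of all kept genes from 0.03 to 0.27, with 17 members then higher in Lgr6+ cells and 9 in Lgr5+ cells. The share of the members past 1.5-fold that were higher in Lgr6+ cells went from 54.5% to 65.4%, and over all kept genes it went from 54.96% to 69.3%. Across the deposited values and 3 rescaled versions (quantile normalization, the same upper quartile and the same sum), 19 members stayed past 1.5-fold in the same direction, 10 higher in Lgr6+ cells (23.8%, against 24.7% of all kept genes) and 9 higher in Lgr5+ cells (21.4%, against 16.4%). No member past 1.5-fold changed its direction in these versions, and 5 members within 1.5-fold did, namely *Ccna2*, *Ccnl1*, *Cdk15*, *E2f2* and *Tfdp2*.

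**Figure D2:**
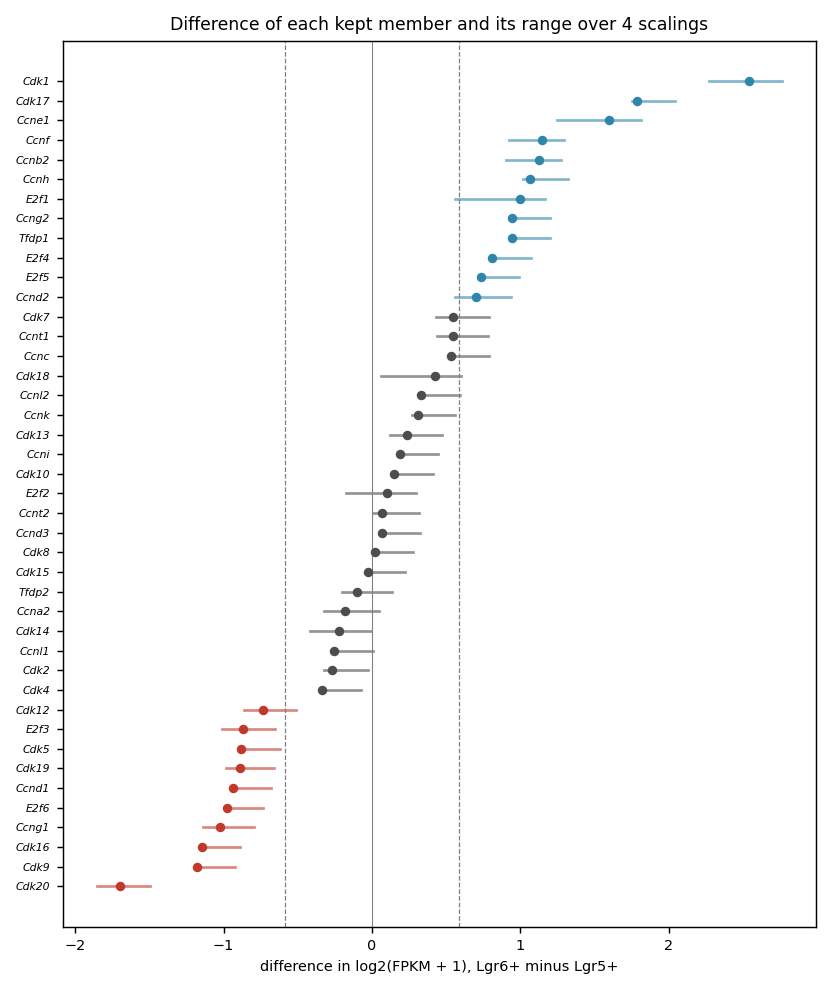
Points give the difference in log2(FPKM + 1), Lgr6+ minus Lgr5+ progenitors, for the 42 kept members, and horizontal lines give its lowest and highest value over the deposited values and 3 rescaled versions. Dashed lines mark 1.5-fold, and *Cdk12*, *Ccnd2* and *E2f1* are the coloured members whose line crosses back over it.

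The D-type cyclins of G1 differed in their shares, while their sum lay within 1.5-fold. *Ccnd1*, which encodes cyclin D1, the D-type cyclin induced by growth signals, lies on chromosome 7 between 144929931 and 144939925 and had FPKM values of 66.8 in Lgr5+ cells and 34.4 in Lgr6+ cells. It was 1.94 times higher in Lgr5+ cells by the ratio of FPKM, a difference of -0.94 on the log2 scale. *Ccnd2*, for cyclin D2, went the other way, from 4.80 in Lgr5+ cells to 8.41 in Lgr6+ cells, and its difference of 0.70 dropped to 0.56, under the 1.5-fold line, after quantile normalization. *Ccnd3*, for cyclin D3, was near equal at 35.0 and 36.7, and its interval overlaps that of *Bysl*, at 21.3 and 14.4. The 3 D-type cyclins summed to 106.7 in Lgr5+ cells and 79.5 in Lgr6+ cells. Within that sum *Ccnd1* made up 62.7% in Lgr5+ cells and 43.3% in Lgr6+ cells, and *Ccnd3* 32.8% and 46.2%. *Ccnd1* was thus the leading D-type cyclin in Lgr5+ cells, with 1.91 times the FPKM of *Ccnd3*, but stood at 0.94 times *Ccnd3* in Lgr6+ cells. Such ratios within a population do not depend on any factor that scales a whole library.

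*Cdk4*, the main kinase partner of the D-type cyclins, lies on chromosome 10 between 127063603 and 127067282 and had the highest level of all 49 genes, with an FPKM of 299 in Lgr5+ cells and 236 in Lgr6+ cells. That is percentile 97.0 and 96.8 of the kept genes. The difference of -0.34 was within 1.5-fold, and *Cdk4* stood at 2.81 times the summed D-type cyclins in Lgr5+ cells and 2.97 times in Lgr6+ cells. Its close relative *Cdk6*, which binds the same cyclins, was listed at 0 in Lgr5+ cells and at 0.374 in Lgr6+ cells and was not kept. Nearly all of the D-cyclin kinase RNA in both populations was therefore that of *Cdk4*. The kinase of the next step, *Cdk2*, was listed at 13.2 and 10.8, a difference of -0.27. Its G1/S cyclin *Ccne1*, on chromosome 7 between 38097984 and 38107490, had an FPKM of 0.717 in Lgr5+ cells and 4.19 in Lgr6+ cells, a difference of 1.60. At the lengths of its annotated transcripts the Lgr5+ value of *Ccne1* stands for 2.27 to 10.03 steps and the Lgr6+ value for 42.6 to 188. *Ccne2*, the second E-type cyclin, was at 0.503 and 0.467 and was not kept, and its interval overlaps that of *Ints8*, at 16.9 and 11.6.

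Of the members that act in G2 and mitosis, *Cdk1*, *Ccnb1*, *Ccnb2* and *Ccnf* were listed at or near 0 in Lgr5+ cells and at low levels in Lgr6+ cells. *Cdk1*, the kinase that drives entry into mitosis, lies on chromosome 10 between 69336635 and 69352912 and stood at 0.119 in Lgr5+ and 5.49 in Lgr6+ cells, a difference of 2.54 and the widest of all members. The Lgr5+ value corresponds to 0.458 to 2.49 steps over the lengths of its annotated transcripts, and the Lgr6+ value to 67.8 to 368. *Ccnb2*, for the mitotic cyclin B2, was listed at 0 in Lgr5+ cells and at 1.18 in Lgr6+ cells. *Ccnf*, for cyclin F, the substrate receptor of a ubiquitin ligase in G2, was listed at 0 and 1.21. *Ccnb1*, for cyclin B1, stayed just under the minimum for a kept gene at 0.0608 and 0.875, the former 0.464 to 1.08 steps and the latter 21.4 to 49.9. Because the Lgr5+ values of these 4 genes are 0 or rest on so few steps, no ratio is given for them. *Ccna2*, for the cyclin A2 of S phase and G2, did not share this pattern, with 7.13 in Lgr5+ cells and 6.17 in Lgr6+ cells. Its interval overlaps that of *Exosc9*, listed at 26.7 and 32.4, and reads of overlapping genes may not be separated by the counting. The germline cyclins *Ccna1* and *Ccnb3* were listed at 0 in both populations.

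Mitosis genes outside the list were examined as well. Of 17 such genes 12 were kept, and 8 of them were higher in Lgr6+ cells and 1 in Lgr5+ cells. Over all kept genes the shares were 28.5% and 23.3%. The median difference of the 12 was 1.37, against 0.03 over all kept genes. However, *Cenpa*, *Aurkb*, *Mki67*, *Tpx2* and *Kif11* reached the minimum FPKM in Lgr6+ cells only, so the count and the median depend partly on the filter. The summed FPKM of all 17 was 30.9 and 73.1. *Cenpa*, the centromeric histone H3, showed the widest difference toward Lgr6+ cells, with 0.540 and 15.1. *Cenpe*, a kinetochore motor, was the gene higher in Lgr5+ cells, with 2.23 and 0.957. *Birc5*, for survivin of the chromosomal passenger complex, had the highest level of the list in Lgr5+ cells, with 16.8, and stood at 11.2 in Lgr6+ cells, below *Cenpa*. Marker genes of several other cell types differed in the same direction. All 6 kept macrophage markers of 8 examined were higher in Lgr6+ cells, but each had reached the minimum FPKM in Lgr6+ cells only. The 8 had a summed FPKM of 1.12 in Lgr5+ cells, where 6 of the 8 were listed at 0, and 205 in Lgr6+ cells. The 6 endothelial markers were likewise all higher in Lgr6+ cells, with sums of 10.9 and 80.2 and *Kdr* at 0 in Lgr5+ cells. Of these, *Pecam1*, *Kdr* and *Flt1* had reached the minimum FPKM in Lgr6+ cells only, so the count depends partly on the filter. Of 6 glial markers 3 were higher in Lgr6+ cells and none in Lgr5+ cells, with sums of 158 and 364. Among these 3, *Pmp22* had reached the minimum in Lgr6+ cells only. Of 8 mesenchyme and fibrocyte markers 4 were higher in Lgr6+ cells and 1 in Lgr5+ cells, with sums of 320 and 577. Of 6 hair cell markers 5 were higher in Lgr6+ cells, while 4 of 5 kept erythroid markers were higher in Lgr5+ cells, with sums of 630 and 108. The erythroid markers *Hba-a1* and *Hba-a2* had reached the minimum in Lgr5+ cells only. The part of these other cell types in the levels of *Cdk1* and the mitotic cyclins was not tested. In these bulk samples, a larger number of dividing cells and more of this RNA in each cell cannot be told apart.

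**Figure D3:**
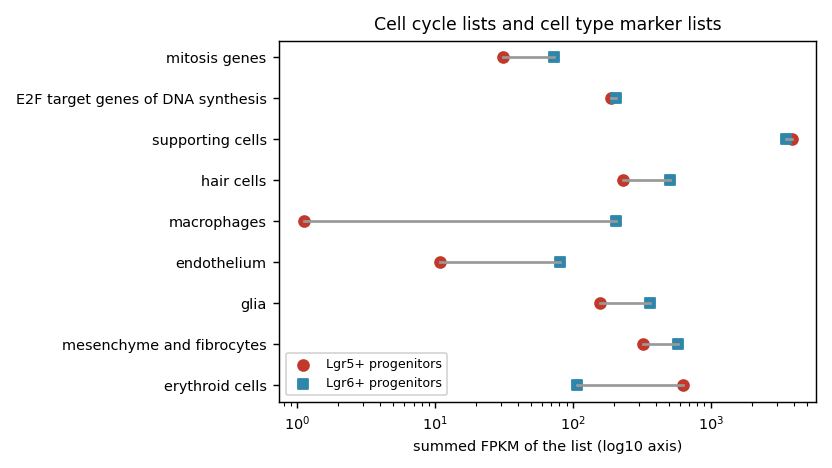
Each line joins the summed FPKM of a list of genes in Lgr5+ progenitors (circles) and Lgr6+ progenitors (squares) on a log10 axis. The mitosis list, here without *Cdk1*, *Ccnb1* and *Ccnb2*, goes from 30.9 to 73.1, and the macrophage and endothelial marker lists go from 1.12 to 205 and from 10.9 to 80.2, while erythroid markers go the other way.

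The promoters of these mitotic genes are shown because motifs of cell cycle control can be read in them beside the levels. RefSeq start sites of build GRCm38.p6 were available for 39 of the 49 genes, and each line gives the 150 bases just before the start, 5′ to 3′ on the strand of the gene. Capitals mark 3 motifs searched on both strands, none of whose matches overlapped a match of another motif. These are the E2F motif (TTTCCCGC, TTTGGCGC, TTTCGCGC or TTTGCCGC), the cell cycle genes homology region or CHR (TTTGAA), which is bound by the MuvB complex, and the CCAAT box, which is bound by NF-Y. *E2f3*, which had the higher level in Lgr5+ cells, is added for comparison.
Cdk1, chr10:69352913-69353062, minus strand: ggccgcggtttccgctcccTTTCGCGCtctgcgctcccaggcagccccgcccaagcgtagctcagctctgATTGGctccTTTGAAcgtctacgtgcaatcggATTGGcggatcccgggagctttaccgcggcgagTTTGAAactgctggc
Ccnb1, chr13:100786487-100786636, minus strand: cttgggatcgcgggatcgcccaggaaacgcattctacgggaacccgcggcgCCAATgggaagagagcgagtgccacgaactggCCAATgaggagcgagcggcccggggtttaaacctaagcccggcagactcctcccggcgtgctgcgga
Ccnb2, chr9:70421555-70421704, minus strand: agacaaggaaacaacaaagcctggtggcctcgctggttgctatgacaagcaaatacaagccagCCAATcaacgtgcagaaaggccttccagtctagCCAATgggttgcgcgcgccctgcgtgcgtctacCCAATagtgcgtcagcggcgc
Ccnf, chr17:24251410-24251559, minus strand: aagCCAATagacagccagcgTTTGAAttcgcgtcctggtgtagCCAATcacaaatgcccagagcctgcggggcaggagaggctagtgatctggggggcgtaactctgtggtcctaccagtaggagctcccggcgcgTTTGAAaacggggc
E2f3, chr13:29986064-29986213, minus strand: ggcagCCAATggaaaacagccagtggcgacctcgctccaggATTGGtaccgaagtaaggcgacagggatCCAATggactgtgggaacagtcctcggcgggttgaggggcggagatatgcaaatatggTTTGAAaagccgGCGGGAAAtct

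All 4 mitotic promoters hold at least 2 CCAAT boxes within these bases, and *Cdk1* and *Ccnf* each hold a CHR 15 and 14 bases before the start. The 2 CHRs of *Ccnb2* lie outside the bases shown, 167 bases before the start and at base 5 of the transcript. *Cdk1* also holds an E2F motif, which starts 131 bases before the start site. The *E2f3* promoter holds all 3 motifs as well, although its FPKM was the higher in Lgr5+ cells. In windows from 250 bases before to 50 bases after the start, an E2F motif was found for 6 of the 39 genes (15.4%, against 2.61% of 27025 genes with a window), namely *Cdk1*, *Cdk2*, *E2f2*, *E2f3*, *E2f7* and *Tfdp1*. A CHR was found for 8 of the 39 (20.5%, against 20.2%) and a CCAAT box for 20 (51.3%, against 41.1%). These matches describe letters in the sequence and are not binding sites shown by these data.

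Within both the activator and the repressor E2Fs, members differed in opposite directions. *E2f3*, an activator E2F, lies on chromosome 13 between 29906575 and 29986063 and stood at 9.02 in Lgr5+ and 4.48 in Lgr6+ cells, 2.02 times higher in Lgr5+ cells and -0.87 on the log2 scale. *E2f1*, another activator E2F, was low in both, at 0.318 in Lgr5+ cells and 1.62 in Lgr6+ cells. Its difference of 0.99 dropped to 0.56 after quantile normalization, and its Lgr5+ value stands for 4.51 to 6.31 steps. *E2f2* was at 2.54 and 2.79. The 3 activators together summed to 11.9 in Lgr5+ cells and 8.89 in Lgr6+ cells, and *E2f3* had the highest level of them in both. The repressor E2Fs were far more abundant. *E2f4*, on chromosome 8 between 105297663 and 105305370, was listed at 23.1 and 41.2, a difference of 0.81. *E2f5*, which like *E2f4* works with the pocket proteins in cells that do not divide, was at 22.5 and 38.1, a difference of 0.73, but its interval overlaps that of *1810022K09Rik*, listed at 420 and 503. *E2f6*, which represses through Polycomb proteins and without pocket proteins, went the opposite way, with 21.1 in Lgr5+ cells and 10.3 in Lgr6+ cells, a difference of -0.97. *E2f4*, *E2f5* and *E2f6* had nearly equal levels in Lgr5+ cells, with 34.6%, 33.8% and 31.7% of their sum, whereas *E2f6* made up 11.5% in Lgr6+ cells. The late S phase repressors *E2f7* and *E2f8* were listed at 0 in Lgr5+ cells and at 0.0646 and 0.394 in Lgr6+ cells, and were not kept.

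Of the Dp partners, which every E2F from *E2f1* to *E2f6* needs to bind DNA well, *Tfdp1* was the higher in Lgr6+ cells. It lies on chromosome 8 between 13338751 and 13378448 and stood at 12.7 in Lgr5+ and 25.3 in Lgr6+ cells, a ratio of 1.99 and a difference of 0.94. *Tfdp2* was at 8.75 and 8.09, so *Tfdp1* stood at 1.45 times *Tfdp2* in Lgr5+ cells and 3.13 times in Lgr6+ cells.

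**Figure D4:**
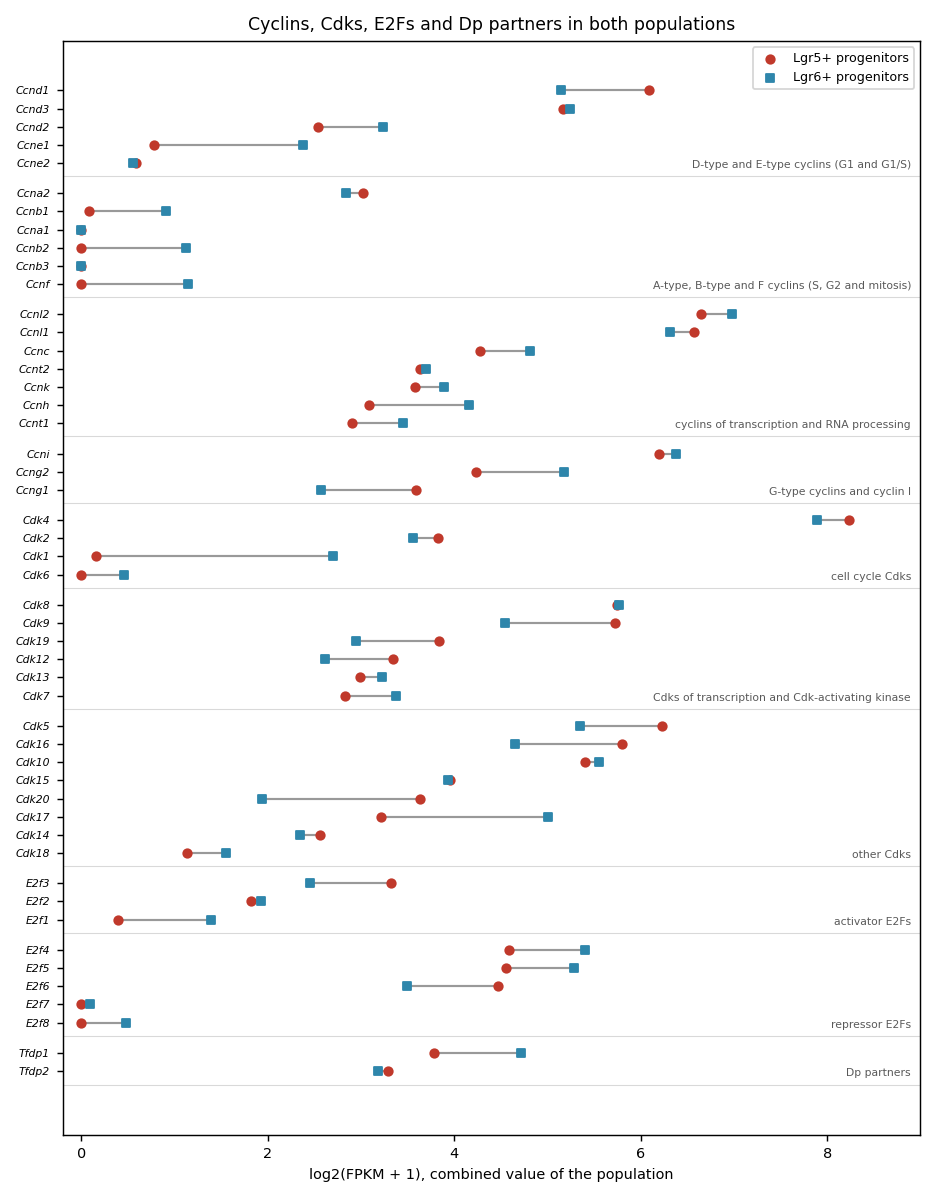
Each row is a member, grouped by role, with log2(FPKM + 1) in Lgr5+ progenitors as a circle and in Lgr6+ progenitors as a square; each value is the combined value of a population and has no error. *Cdk4* lies farthest right in both populations, and the squares of *Cdk1*, *Ccnb1*, *Ccnb2* and *Ccnf* lie to the right of circles at or near 0.

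Of the 6 transcription kinases, *Cdk9*, *Cdk12* and *Cdk19* were higher in Lgr5+ cells and none was higher in Lgr6+ cells, counted on the log2(FPKM + 1) scale. Over all kept genes 23.3% were higher in Lgr5+ cells and 28.5% in Lgr6+ cells, and so small a count was not tested against these shares. *Cdk9*, the kinase of P-TEFb, which releases paused RNA polymerase II, lies on chromosome 2 between 32705782 and 32712784 and stood at 51.8 in Lgr5+ and 22.4 in Lgr6+ cells. It was 2.32 times higher in Lgr5+ cells, a difference of -1.18. Its cyclins lay within 1.5-fold on the log2(FPKM + 1) scale. *Ccnt1*, which overlaps *9330020H09Rik* at 3.43 and 4.22, was at 6.50 and 9.92, a difference of 0.54 but a ratio of 1.53. *Ccnt2* was at 11.4 and 12.0. *Cdk9* therefore stood at 2.90 times the summed cyclin T RNA in Lgr5+ cells and at 1.02 times in Lgr6+ cells. *Hexim1*, *Larp7* and *Mepce*, which hold P-TEFb inactive in the 7SK particle, were all higher in Lgr5+ cells, with 16.3 and 8.71, 47.0 and 25.3, and 29.8 and 12.7. These 3 were named after their values were seen.

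In the Cdk-activating kinase, which phosphorylates other Cdks and is part of the general transcription factor TFIIH, the cyclin and the assembly factor went opposite ways. *Ccnh*, for cyclin H, on chromosome 13 between 85189477 and 85213723, was listed at 7.50 in Lgr5+ cells and 16.8 in Lgr6+ cells, a difference of 1.07. The kinase *Cdk7* was at 6.09 and 9.37, a ratio of 1.54. Its difference of 0.55 on the log2(FPKM + 1) scale lies just under 1.5-fold, and its interval overlaps that of *Ccdc125*. *Mnat1*, the third subunit, which is not a member, was at 67.4 in Lgr5+ cells and 19.2 in Lgr6+ cells, a difference of -1.76. *Mnat1* thus stood at 8.99 times *Ccnh* in Lgr5+ cells and at 1.14 times in Lgr6+ cells. Of the 8 kept partners of the transcription kinases examined, *Mnat1* and 3 others were higher in Lgr5+ cells and none in Lgr6+ cells, with a median difference of -0.58. The shares over all kept genes were 23.3% and 28.5%, and this small count was not tested against them.

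The kinase module of Mediator, the coactivator complex of RNA polymerase II, holds cyclin C with *Cdk8* or its paralog *Cdk19*. *Cdk8* was near equal in the populations, at 52.7 and 53.4, whereas *Cdk19* was at 13.3 in Lgr5+ cells and 6.71 in Lgr6+ cells, a difference of -0.89. *Cdk8* made up 79.8% of the sum of both in Lgr5+ cells and 88.8% in Lgr6+ cells. *Ccnc* was at 18.4 and 27.1, a difference of 0.53, and shares part of its interval with *Tstd3*, at 17.7 and 11.8. The elongation kinases *Cdk12* and *Cdk13*, which both bind cyclin K, changed places in order. *Cdk12* was at 9.15 and 5.10 and *Cdk13* at 6.94 and 8.35, so *Cdk12* was the higher of both in Lgr5+ cells and the lower in Lgr6+ cells. The difference of *Cdk12* was -0.73, and -0.51 when the populations were scaled to the same sum, which is within 1.5-fold. Cyclin K itself, *Ccnk*, was at 11.0 and 13.9. The splicing-linked cyclins *Ccnl1* and *Ccnl2* were among the most abundant members, with 94.0 and 78.7 for *Ccnl1* and 99.5 and 125 for *Ccnl2*, and lay within 1.5-fold. Of the 7 cyclins of transcription and RNA processing, *Ccnh* alone passed 1.5-fold on the log2(FPKM + 1) scale of the deposited values. By the plain ratio of FPKM, *Ccnt1* passed it as well.

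Among the Cdks with other roles, *Cdk17* and *Cdk20* differed most. *Cdk17*, a PCTAIRE kinase best known from neurons, lies on chromosome 10 between 93160876 and 93241342 and stood at 8.28 in Lgr5+ and 31.0 in Lgr6+ cells. It was 3.75 times higher in Lgr6+ cells, a difference of 1.79. Its paralog *Cdk16*, on chromosome X between 20688493 and 20699877, went the opposite way, with 54.6 in Lgr5+ cells and 24.2 in Lgr6+ cells, 2.26 times higher in Lgr5+ cells. *Cdk18*, the third paralog, was low at 1.19 and 1.93. The sum of the 3 paralogs hardly differed, at 64.1 in Lgr5+ cells and 57.1 in Lgr6+ cells, but *Cdk16* made up 85.2% of it in Lgr5+ cells and 42.3% in Lgr6+ cells, and *Cdk17* 12.9% and 54.3%. The ratio of *Cdk16* to *Cdk17* was 6.59 in Lgr5+ cells and 0.779 in Lgr6+ cells, an 8.46-fold shift.

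**Figure D5:**
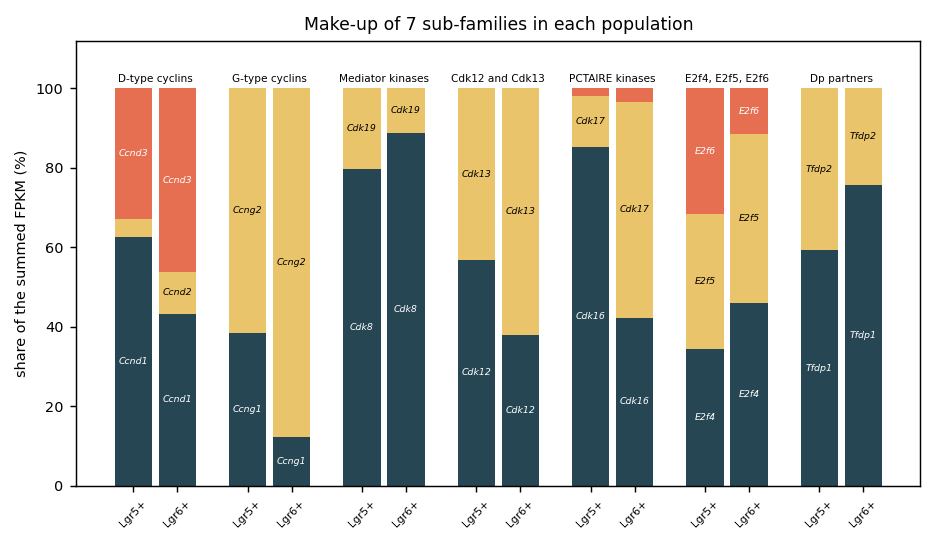
Stacked bars give the share, in percent, of each gene in the summed FPKM of its sub-family in Lgr5+ and Lgr6+ progenitors. *Cdk16* takes 85.2% of the PCTAIRE bar in Lgr5+ and 42.3% in Lgr6+ progenitors, and the thin segments without a name are *Ccnd2* in Lgr5+ progenitors (4.50%) and *Cdk18* at the top of the PCTAIRE bars (1.85% and 3.38%).

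*Cdk20*, a kinase tied to cilia and to hedgehog signalling, lies on chromosome 13 between 64432553 and 64439721 and stood at 11.4 in Lgr5+ and 2.84 in Lgr6+ cells. At 4.03 times higher in Lgr5+ cells, it had the widest difference in that direction of all members, -1.70 on the log2 scale. *Cdk5*, a kinase best known from neurons, which uses activators in place of a cyclin, was at 73.9 and 39.7, a difference of -0.88. Its direct activators were low or at 0 in both populations, with *Cdk5r1* at 4.95 and 4.07 and *Cdk5r2* listed at 0. None of the 4 kept Cdk5 activators and binding proteins examined passed 1.5-fold, with a median difference of -0.25 and with *Cdk5rap3* the highest at 42.4 and 34.8. *Cdk10*, *Cdk14* and *Cdk15* lay within 1.5-fold, with 41.2 and 45.8, 4.92 and 4.07, and 14.5 and 14.2.

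The G-type cyclins, which slow rather than drive the cycle, differed in opposite directions. *Ccng1*, a target of p53, on chromosome 11 between 40748552 and 40755286, was listed at 11.1 in Lgr5+ cells and 4.95 in Lgr6+ cells, a difference of -1.02. *Ccng2*, a gene switched on by FoxO factors in resting cells, on chromosome 5 between 93267573 and 93276231, was at 17.8 and 35.1, a difference of 0.94. *Ccng2* was the higher of both genes in each population, with 61.6% of their sum in Lgr5+ cells and 87.6% in Lgr6+ cells. *Ccni*, for the atypical cyclin I, was abundant and near equal, at 72.1 and 82.2.

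The genes around the cyclins and Cdks were mixed in the same way. Beside the counts below, 28.5% of all kept genes were higher in Lgr6+ cells and 23.3% in Lgr5+ cells. Of the 10 Cdk inhibitors and pocket proteins examined, 9 were kept, with 3 higher in Lgr6+ cells, 1 in Lgr5+ cells and a median difference of 0.22. *Cdkn1c*, for p57, had the highest level of these, with 173 in Lgr5+ cells and 213 in Lgr6+ cells. *Cdkn2c*, for p18, was listed at 0 and 5.65, and *Cdkn2b*, for p15, at 1.77 and 0.133. The counts depend partly on the filter, since *Cdkn2c* and *Rbl1* reached the minimum FPKM in Lgr6+ cells only and *Cdkn2b* in Lgr5+ cells only. Of the 7 genes that set Cdk phosphorylation or bind Cdks as Cks adaptors, 2 were higher in Lgr6+ cells and none in Lgr5+ cells. These 2, *Cdc25c* and *Pkmyt1*, reached the minimum FPKM in Lgr6+ cells only, so this count depends on the filter. *Pkmyt1*, for the kinase that holds Cdk1 inactive, showed the widest difference of the 7, with 0.739 and 4.10. *Cks1b* was the most abundant, with 102 and 80.8. Of 9 genes of the DREAM and MuvB complexes, through which E2Fs and pocket proteins silence cell cycle genes, 8 were kept, and 3 were higher in each population. *Rbl1* and *Rbl2*, both higher in Lgr6+ cells, are counted here and also among the pocket proteins. *Lin9* was at 5.43 and 1.32, *Lin37* at 73.6 and 36.8, and *Foxm1*, which joins MuvB in G2, at 1.09 and 4.61.

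The 20 E2F target genes of DNA synthesis examined differed in both directions. Of the 18 that were kept, 5 were higher in Lgr6+ cells and 7 in Lgr5+ cells, where the shares over all kept genes were 28.5% and 23.3%. Their median difference was -0.23, while the summed FPKM of all 20 was 189 in Lgr5+ cells and 206 in Lgr6+ cells. The counts depend partly on the filter. *Tk1*, *Cdc6* and *Rfc4* reached the minimum FPKM in Lgr6+ cells only, and *Mcm3*, *Cdt1* and *Gins1* in Lgr5+ cells only. *Tk1*, for thymidine kinase, was listed at 0 in Lgr5+ cells and 11.3 in Lgr6+ cells. *Gins1*, a part of the replicative helicase, was at 4.15 and 0.566. *Pcna*, for the sliding clamp of DNA polymerase, had the highest level of the list in Lgr6+ cells, with 25.3 and 57.0, while *Rfc3*, a subunit of the clamp loader, had the highest in Lgr5+ cells, with 37.6 and 22.3. This list and the list of mitosis genes were not tested against each other.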

How the data were processed

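RNA-Seq was done by the authors on sorted Lgr5+ and Lgr6+ cells (SMART-Seq v4, paired-end reads). Per the methods and the submitters' processing notes, reads were trimmed with Trimmomatic, mapped with TopHat and quantified with Cufflinks on RefGene genes. Versions are not given in the sources used here. The FPKM values that the authors deposited are 1 combined value per population. The paper names mm9 and the notes name mm10, and all 49 member intervals overlap the RefSeq gene in GRCm38.p6. Starts are printed 1-based.

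The 3 deposited columns of the authors' own comparison (fold change, p-value, q-value) were not used. Genes that reached an FPKM of 1 in either population were kept, a pseudocount of 1 was added, and a difference of at least 1.5-fold was counted, without any test. The counting was run on simulated 2-fold differences with little noise, which checks the code alone and not the precision of the deposited values. The members and lists were chosen with earlier results of these data known, and every member is named. Pathway genes were named for the widest difference in each direction and the highest FPKM. Alternatives were another pseudocount, filters, scalings and a 2-fold threshold. Transcript lengths for the steps came from GENCODE M1. A gene counted at a step lay within 3% of it. *Cdk3* was not analysed here. Python 3.11.15, numpy 2.4.6, pandas 2.3.3 and matplotlib 3.10.9 were used.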

Additional observations from a re-analysis of the deposited data

How the results depend on the processing

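No paired analysis was possible because the table holds 1 combined value per population, and for the same reason no replicate could be left out. When both populations had to reach an FPKM of 5, the members higher in Lgr6+ progenitors went from 12 to 6. A 2-fold threshold left 6 members higher in Lgr6+ progenitors and 4 in Lgr5+ progenitors, where 18.2% and 11.7% of all kept genes passed. Scaling to the same FPKM sum moved the median difference of the kept members from 0.12 to 0.37, with a shift of all kept genes from 0.03 to 0.27. The remaining alternatives left the counts within 1.5 times and the median within 0.1. Of the 42 kept members, quantile normalization took 2 under 1.5-fold, the same sum took 1 under and 5 over, a pseudocount of 0.1 took 3 over, and the same upper quartile moved none across it. Without read counts, the precision of low values is unknown.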
